A study of Homo sapiens with 12 samples.

Results

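The smooth muscle type contractile genes examined here are *ACTA2*, *ACTG2*, *TAGLN*, *CNN1*, *MYL9*, *MYH11*, *TPM1*, *TPM2*, *MYOCD* and *SRF*. They were chosen by name, with earlier results of these data known. All 10 were measured, among 33616 gene symbols read by 36176 probe sets with 1 symbol each. The cells were derivatives of MIO-M1, a human cell line of Müller glia, the radial glial cells of the retina. Clariom D Human arrays were hybridized with RNA of 4 groups of 3 cultures: Dox-induced MIO-M1-CTG(648), non-induced MIO-M1-CTG(648), Dox-induced MIO-M1-CTG(0) and non-induced MIO-M1-CTG(0). Each line carries an inducible *DMPK* minigene, with a 648 CTG repeat tract or with 0 repeats. All groups carry the Tet3G transactivator, driven by the CMV promoter, and come from 1 selected transactivator clone. All cultures were kept under G418 and puromycin, and induced cultures received doxycycline (Dox) at 1 μg/mL for 8 days. Each repeat length is 1 line, so repeat length and other differences between the lines cannot be told apart, and neither can fewer cells that express a gene and less of its RNA per cell.

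Smooth muscle contracts when myosin light chain kinase phosphorylates the regulatory light chain of myosin, which then pulls on actin filaments lined with tropomyosin. Genes of this apparatus are largely switched on by serum response factor (SRF), which binds the CArG box, a run of A and T bases between CC and GG, together with the coactivator myocardin or the myocardin related transcription factors. Several of these genes are also expressed outside muscle, as in myofibroblasts and in some cultured glia, where α-smooth muscle actin marks cells that build stress fibers.

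All values are log2 signals as deposited. Median signals of the 12 arrays lay between 5.12 and 5.21 over the probe sets with 1 symbol. A signal of 5, exceeded or reached by 52.1% to 53.3% of these probe sets, was taken as the lower limit of clear detection. *DMPK* itself was read at 9.72 ± 0.15 with Dox and 10.19 ± 0.17 without in the MIO-M1-CTG(648) line, and at 8.54 ± 0.08 with Dox and 7.95 ± 0.25 without in the MIO-M1-CTG(0) line (SD, n = 3 each). It was thus not higher with Dox in the MIO-M1-CTG(648) line. Which part of *DMPK* the probe set reads was not given in the sources used here, and it also reads the cells' own *DMPK* RNA, so it is no check of the induction, and groups are called by their labels.

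Promoter sequences are shown for the 3 members in which a search found CArG boxes or a near form of them, because this element links contractile genes to SRF, itself a member. RefSeq (GRCh38.p14) gave windows of 300 bases, 250 before and 50 after the annotated start, for 6 members with 9 start sites. *TAGLN*, *MYL9*, *MYH11* and *MYOCD* had no entry. Capitals mark CArG boxes, or in *ACTA2* CArG boxes with 1 C or G inside the A and T run. The windows are chr10:88952724-88953023 (minus strand) for *ACTA2*, chr2:73892758-73893057 (plus strand) for *ACTG2* and chr6:43171019-43171318 (plus strand) for *SRF*, written 5′ to 3′ along the gene.
ACTA2: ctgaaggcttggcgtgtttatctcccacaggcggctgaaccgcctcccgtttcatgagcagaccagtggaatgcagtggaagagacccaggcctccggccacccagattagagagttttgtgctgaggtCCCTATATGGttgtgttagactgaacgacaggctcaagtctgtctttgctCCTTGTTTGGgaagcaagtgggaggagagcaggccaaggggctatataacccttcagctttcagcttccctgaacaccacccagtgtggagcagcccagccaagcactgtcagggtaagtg
ACTG2: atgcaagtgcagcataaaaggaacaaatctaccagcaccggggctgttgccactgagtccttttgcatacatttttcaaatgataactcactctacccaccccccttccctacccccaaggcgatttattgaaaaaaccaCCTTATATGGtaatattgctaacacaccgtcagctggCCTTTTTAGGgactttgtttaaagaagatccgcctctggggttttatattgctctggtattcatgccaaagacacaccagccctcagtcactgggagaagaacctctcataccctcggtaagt
SRF: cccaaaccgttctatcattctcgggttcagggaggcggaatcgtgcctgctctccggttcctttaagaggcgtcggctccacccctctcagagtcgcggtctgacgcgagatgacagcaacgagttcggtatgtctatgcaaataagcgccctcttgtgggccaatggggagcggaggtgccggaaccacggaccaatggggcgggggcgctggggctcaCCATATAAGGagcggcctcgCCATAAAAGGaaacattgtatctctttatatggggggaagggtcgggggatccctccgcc
The *ACTG2* promoter held 2 CArG boxes, at -110 to -101 and at -73 to -64 from the start, and the *SRF* promoter held 2, at -30 to -21 and at -10 to -1. A CArG box was found in 454 of 35116 promoters of this length (1.29%), and both strands were read, since the motif is its own reverse complement in form. *ACTA2* held 2 near forms, at -121 to -112 and at -71 to -62, a form present in 2437 promoters (6.94%). CATTCC, searched on both strands, was present in the *ACTA2* window at -183 to -178 and in 14.0% of all promoters, and it did not overlap the capitals. The other start sites of *ACTA2* and *SRF* and the windows of *CNN1*, *TPM1* and *TPM2* held none of these letters.

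Dox was compared with no Dox within each line, and the lines were compared with each other with and without Dox. A gene was counted where its log2 fold change exceeded 0.5 in size with an unadjusted p under 0.005 (limma), the threshold of the study's methods. The study also discarded genes changed by Dox in MIO-M1-CTG(0) cells, or differing between the non-induced lines, from its respective comparisons. That step was not applied to the counts given here. With Dox in MIO-M1-CTG(648) cells, *ACTA2* and *MYL9* fell, 2 of 10 members, where 2.42% of all probe sets passed in either direction and 1.14% were lower. Signals of the 3 induced and 3 non-induced cultures did not overlap for 4 members, *ACTA2* and *MYL9* (lower) and *MYOCD* and *SRF* (higher), against 17.0% of all probe sets. With Dox in MIO-M1-CTG(0) cells, 0 of 10 members passed, against 1.18% of all probe sets. There, 1 member (*TAGLN*) had an unadjusted p under 0.05 by limma, as did 3035 of the 36176 probe sets. By the methods' t-test 2 members did (*ACTA2*, *TAGLN*), as did 2556 probe sets, and 0 members were past the threshold. These 2 were also the members without overlap, both higher, against 12.9% of all probe sets. Between the lines the genes differed more. Dox-induced MIO-M1-CTG(648) cultures were lower than Dox-induced MIO-M1-CTG(0) cultures in 5 of 10 members (5.34% of all probe sets were lower, 11.7% passed in either direction), and non-induced MIO-M1-CTG(648) cultures were lower than non-induced MIO-M1-CTG(0) cultures in 5 of 10 (6.13% lower, 11.8% in either direction). No member was higher past the threshold in any of these comparisons. In each comparison of lines 7 members did not overlap, all lower in MIO-M1-CTG(648) cells, against 14.6% (with Dox) and 14.3% (without Dox) of all probe sets.

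**Figure D1:**
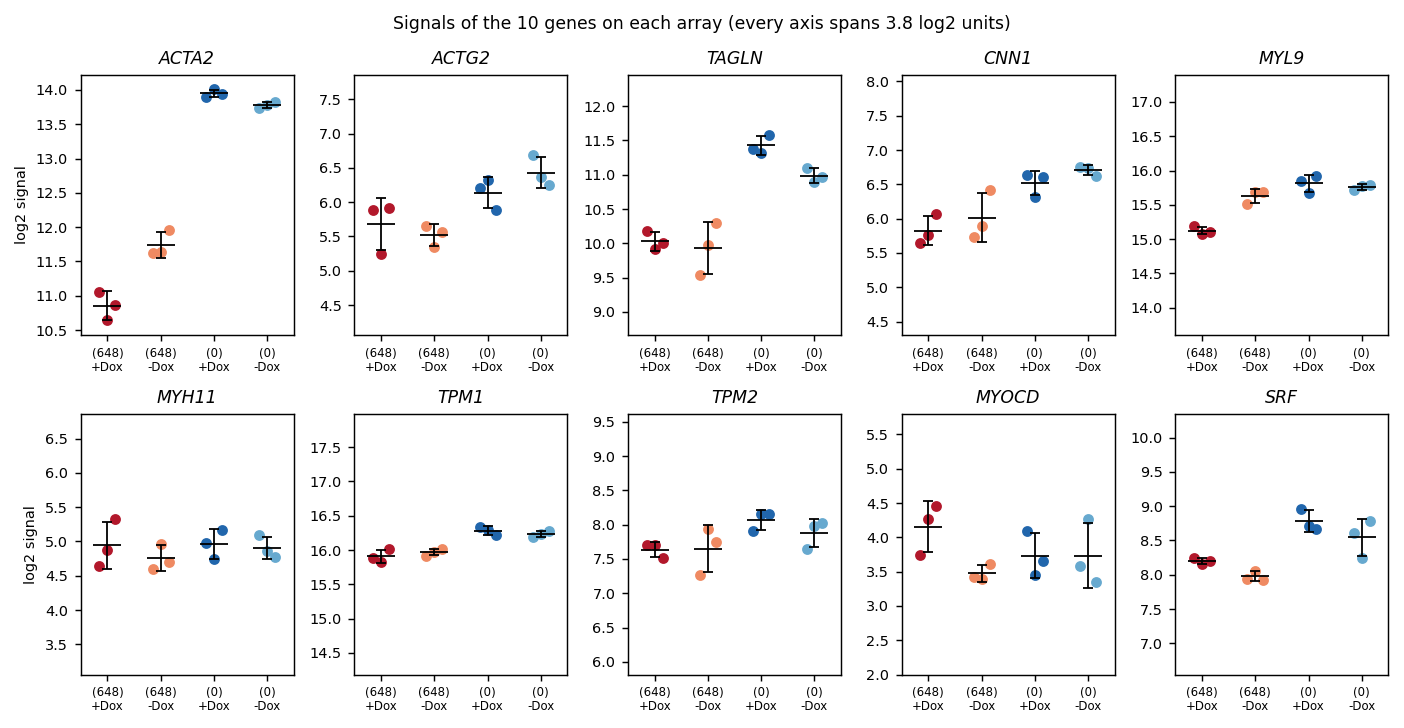
Log2 signal of each of the 10 genes on the 12 arrays. Points are cultures, horizontal lines are means and bars are SD (n = 3), with MIO-M1-CTG(648) and MIO-M1-CTG(0) cells given as (648) and (0). Every vertical axis spans the same number of log2 units. The *ACTA2* signals lie between 10.64 and 11.06 in Dox-induced MIO-M1-CTG(648) cultures and between 13.90 and 14.01 in Dox-induced MIO-M1-CTG(0) cultures, whereas *MYH11* and *MYOCD* stay between 3.35 and 5.32 in all groups.

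Among the actins, *ACTA2* (chr10:88935074-88991337) encodes α-smooth muscle actin, the main actin of vascular smooth muscle and the usual marker of myofibroblasts. Its signal was 11.06, 10.64 and 10.87 in Dox-induced MIO-M1-CTG(648) cultures, against 11.62, 11.64 and 11.96 in non-induced MIO-M1-CTG(648) cultures. All induced cultures were below all non-induced ones. The change was -0.88 (SE 0.15, 95% interval -1.21 to -0.56, adjusted p = 0.0139 by limma), a 0.542-fold level. In the control line it was 13.90, 14.01 and 13.94 with Dox, against 13.73, 13.78 and 13.82 without, a small difference in the other direction that did not pass (0.17, SE 0.15, adjusted p = 0.814). The response to Dox differed between the lines by -1.06 (SE 0.21, unadjusted p = 0.000239, adjusted p = 0.0505), past the threshold used here and just short of an adjusted p of 0.05, where 1.22% of all probe sets were lower by this test. Larger than the response was the distance between the lines. *ACTA2* was lower in MIO-M1-CTG(648) than in MIO-M1-CTG(0) cells, at -3.09 with Dox (0.117-fold, SE 0.15, adjusted p = 3.29e-08) and at -2.04 without Dox (0.244-fold, SE 0.15, adjusted p = 1.13e-06).

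*ACTG2* (chr2:73893008-73919865) encodes the γ-actin of gut and other visceral smooth muscle, and its promoter is the one shown above with 2 CArG boxes. Signals were 5.89, 5.24 and 5.92 in Dox-induced and 5.65, 5.35 and 5.57 in non-induced MIO-M1-CTG(648) cultures. In MIO-M1-CTG(0) cells they were 6.21, 6.32 and 5.89 with Dox and 6.68, 6.36 and 6.25 without. Cultures with and without Dox overlapped in both lines, with changes of 0.16 (95% interval -0.28 to 0.60) in MIO-M1-CTG(648) and -0.29 (-0.73 to 0.15) in MIO-M1-CTG(0) cells. Without Dox the MIO-M1-CTG(648) line was lower, at -0.91 (SE 0.20, adjusted p = 0.00887). With Dox the difference was -0.46 (SE 0.20, adjusted p = 0.183) and did not pass. The muscle actins share most of their coding sequence, and whether probes for one also read another was not given in the sources used here. *ACTC1*, the cardiac α-actin, named after its values were seen, moved against *ACTA2* and *ACTG2* between the lines: it was higher in MIO-M1-CTG(648) cells by 3.63 with Dox and by 3.32 without (adjusted p = 7.60e-07 and 1.28e-06). The cytoplasmic actins *ACTB* and *ACTG1* did not pass in any comparison, with values between -0.44 and -0.08 in the 4 comparisons of Dox and of lines.

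Of the actin-binding proteins, *TAGLN* (chr11:117199294-117207465) encodes transgelin or SM22α, an early marker of smooth muscle differentiation. Signals were 10.18, 9.91 and 10.00 in Dox-induced and 9.54, 9.97 and 10.29 in non-induced MIO-M1-CTG(648) cultures, which overlapped, with a change of 0.10 (95% interval -0.30 to 0.49). The MIO-M1-CTG(0) cultures had 11.38, 11.32 and 11.58 with Dox, against 11.10, 10.89 and 10.97 without. These did not overlap, although the change of 0.44 (SE 0.18, adjusted p = 0.547) did not pass. *TAGLN* was lower in the MIO-M1-CTG(648) line, at -1.40 with Dox (SE 0.18, adjusted p = 0.000194) and at -1.05 without (SE 0.18, adjusted p = 0.00155). As for *ACTA2*, the line difference passed in both states. Unlike that of *ACTA2*, the change of *TAGLN* with Dox in the MIO-M1-CTG(648) line did not pass.

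*CNN1* (chr19:11538851-11550323) encodes calponin 1, which binds actin and restrains myosin ATPase activity in differentiated smooth muscle. It was read at 5.65, 5.76 and 6.07 in Dox-induced and 5.73, 5.89 and 6.42 in non-induced MIO-M1-CTG(648) cultures. The control line gave 6.63, 6.32 and 6.61 with Dox and 6.75, 6.74 and 6.62 without. Dox moved it by -0.19 in the MIO-M1-CTG(648) line and by -0.18 in the MIO-M1-CTG(0) line, neither past the threshold. Its difference between the lines was the same size in both states, -0.69 with Dox and -0.69 without (SE 0.19 each, adjusted p = 0.0270 and 0.0266), and all MIO-M1-CTG(648) cultures were below all MIO-M1-CTG(0) cultures of the same state.

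Of the myosin subunits, *MYL9* (chr20:36541519-36551447) encodes the regulatory light chain that myosin light chain kinase phosphorylates, in smooth muscle and in stress fibers of other cells. Signals in the MIO-M1-CTG(648) line were 15.19, 15.08 and 15.11 with Dox, against 15.51, 15.69 and 15.69 without. The induced cultures were all lower, with a change of -0.50 (SE 0.13, unadjusted p = 0.00186), with an adjusted p of 0.125, and the fold only just exceeded the limit. The call was lost without replicate 2 or 3 of either MIO-M1-CTG(648) group, with changes of -0.49 to -0.47. MIO-M1-CTG(0) cells had 15.85, 15.68 and 15.92 with Dox and 15.71, 15.77 and 15.79 without, which overlapped (0.06, SE 0.13). The difference in response, -0.56 (SE 0.18, unadjusted p = 0.00881, adjusted p = 0.268), did not pass. *MYL9* was the only member whose line difference passed with Dox (-0.69, SE 0.13, adjusted p = 0.00296) but was within -0.41 to 0.15 (95% interval) without Dox.

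*MYH11* (chr16:15703135-15857028) encodes the smooth muscle myosin heavy chain, the marker most restricted to differentiated smooth muscle. It was read at 4.64, 4.87 and 5.32 in Dox-induced and 4.60, 4.97 and 4.70 in non-induced MIO-M1-CTG(648) cultures, and at 4.98, 4.74 and 5.17 in Dox-induced and 5.09, 4.86 and 4.78 in non-induced MIO-M1-CTG(0) cultures. All group means were under 5, the groups overlapped in every comparison and the differences ranged from -0.15 to 0.19.

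Signals of myosin light chain kinase, *MYLK*, moved with its substrate *MYL9* on Dox and against it between the lines. *MYLK* had 12.33, 12.17 and 12.56 in Dox-induced MIO-M1-CTG(648) cultures, against 14.36, 13.81 and 13.72 in non-induced ones. It fell by 1.61 with Dox (SE 0.19, adjusted p = 0.00115), whereas in MIO-M1-CTG(0) cells it had 11.61, 11.35 and 11.87 with Dox, against 11.28, 11.19 and 11.10 without (0.42, adjusted p = 0.592). The responses differed by -2.03 (SE 0.27, adjusted p = 0.00638). Without Dox *MYLK* was higher in MIO-M1-CTG(648) than in MIO-M1-CTG(0) cells by 2.77 (adjusted p = 7.12e-07), and with Dox by 0.74 (adjusted p = 0.0218). *MYLK* was the only one of the 31 further contractile and cytoskeletal genes measured that passed in the response of MIO-M1-CTG(648) cells to Dox.

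**Figure D2:**
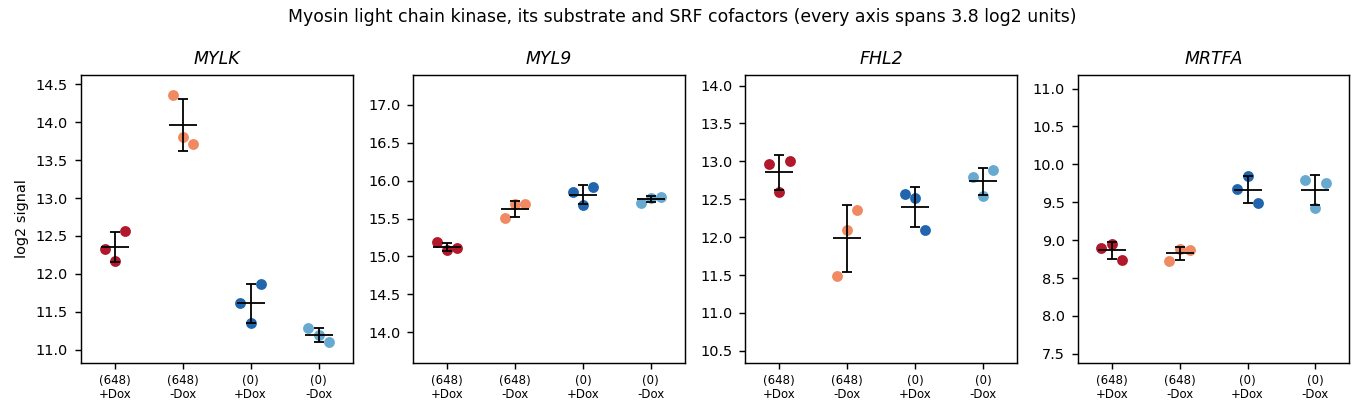
Log2 signal of *MYLK*, *MYL9*, *FHL2* and *MRTFA* on the 12 arrays. Points are cultures, horizontal lines are means and bars are SD (n = 3), and every vertical axis spans the same number of log2 units. *MYLK* and *MYL9* are lower with Dox in MIO-M1-CTG(648) cells, *FHL2* is higher there, and *MRTFA* separates the lines with no overlap.

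The tropomyosins lie along the actin filament and govern access of myosin to it. *TPM1* (chr15:63042747-63071915) had 15.88, 15.83 and 16.01 in Dox-induced and 15.92, 15.97 and 16.01 in non-induced MIO-M1-CTG(648) cultures, and 16.34, 16.29 and 16.22 in Dox-induced and 16.19, 16.24 and 16.27 in non-induced MIO-M1-CTG(0) cultures. The line difference was -0.38 with Dox (95% interval -0.64 to -0.11) and -0.27 without, without overlap between the lines in either state, but under the fold limit. *TPM2* (chr9:35681993-35690056) had 7.70, 7.70 and 7.51 in Dox-induced and 7.27, 7.94 and 7.74 in non-induced MIO-M1-CTG(648) cultures, against 7.90, 8.16 and 8.15 in Dox-induced and 7.65, 7.98 and 8.02 in non-induced MIO-M1-CTG(0) cultures. Its line difference was -0.43 with Dox (95% interval -0.83 to -0.04), without overlap, and -0.23 without Dox, with overlap. Changes with Dox were between -0.06 and 0.19 for both genes in both lines, and each tropomyosin gene gives several isoforms that a gene-level probe set does not separate.

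Of the transcription factors, *SRF* (chr6:43171269-43181506) had 8.24, 8.15 and 8.20 in Dox-induced MIO-M1-CTG(648) cultures, against 7.94, 8.06 and 7.93 in non-induced ones, which did not overlap but differed by 0.22 (SE 0.16, adjusted p = 0.672). In MIO-M1-CTG(0) cells it had 8.96, 8.71 and 8.67 with Dox and 8.61, 8.25 and 8.78 without (0.23, SE 0.16). The MIO-M1-CTG(648) line was lower, at -0.58 with Dox (adjusted p = 0.0253) and at -0.57 without (adjusted p = 0.0273). A second probe set with this symbol, read at 3.05 to 4.08, was not used for *SRF*, and averaging both left -0.40 (adjusted p = 0.117) with Dox and -0.0033 (adjusted p = 0.994) without.

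*MYOCD* (chr17:12665890-12768949), the coactivator found chiefly in smooth and cardiac muscle, had 3.74, 4.27 and 4.45 in Dox-induced MIO-M1-CTG(648) cultures, against 3.42, 3.39 and 3.61 in non-induced ones. The induced cultures were all higher, yet the change of 0.68 (SE 0.25, unadjusted p = 0.0179, adjusted p = 0.321) did not pass. MIO-M1-CTG(0) cells had 4.09, 3.45 and 3.65 with Dox and 3.58, 4.27 and 3.35 without, which overlapped. Every *MYOCD* signal was under 5 and so below the median of the arrays.

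Of 11 measured cofactors and regulators of SRF and myocardin, 2 rose and 0 fell with Dox in MIO-M1-CTG(648) cells. Of all probe sets, 2.42% passed there in either direction. *FHL2*, a LIM protein that binds SRF, had 12.97, 12.59 and 13.00 with Dox, against 11.49, 12.10 and 12.36 without (0.87, SE 0.22, adjusted p = 0.122). In MIO-M1-CTG(0) cells its mean was lower with Dox, at 12.39 against 12.74 without. The response of *FHL2* differed from that of MIO-M1-CTG(0) cells by 1.21 (SE 0.31, adjusted p = 0.146). *KLF4*, a zinc finger factor that represses smooth muscle genes, rose by 0.71 (SE 0.20, adjusted p = 0.179), with signals close to 5. Neither passed an adjusted p of 0.05. Between the lines 5 were lower and 1 was higher in MIO-M1-CTG(648) cells, with Dox and without Dox. Of all probe sets, 11.7% passed in either direction with Dox and 11.8% without. The 5 were not the same genes in both states: *ELK4* was among them only with Dox and *FHL2* only without. Those named here for the line difference were picked after their values were seen. *MRTFA*, the SRF coactivator released by actin polymerization, had 8.90, 8.95 and 8.74 with Dox and 8.73, 8.88 and 8.87 without in the MIO-M1-CTG(648) line, against 9.67, 9.84 and 9.49 with Dox and 9.79, 9.43 and 9.76 without in the MIO-M1-CTG(0) line. The lines differed by -0.80 with Dox and -0.83 without (adjusted p = 0.00295 and 0.00220). *CSRP2*, a LIM protein of smooth muscle, differed by -1.22 and -1.12, and *ELK3*, a ternary complex factor that competes for SRF, by -0.93 and -1.60. *ELK1*, another such factor, was the one that was higher, by 1.23 with Dox and 1.09 without (adjusted p = 0.000191 and 0.000438).

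**Figure D3:**
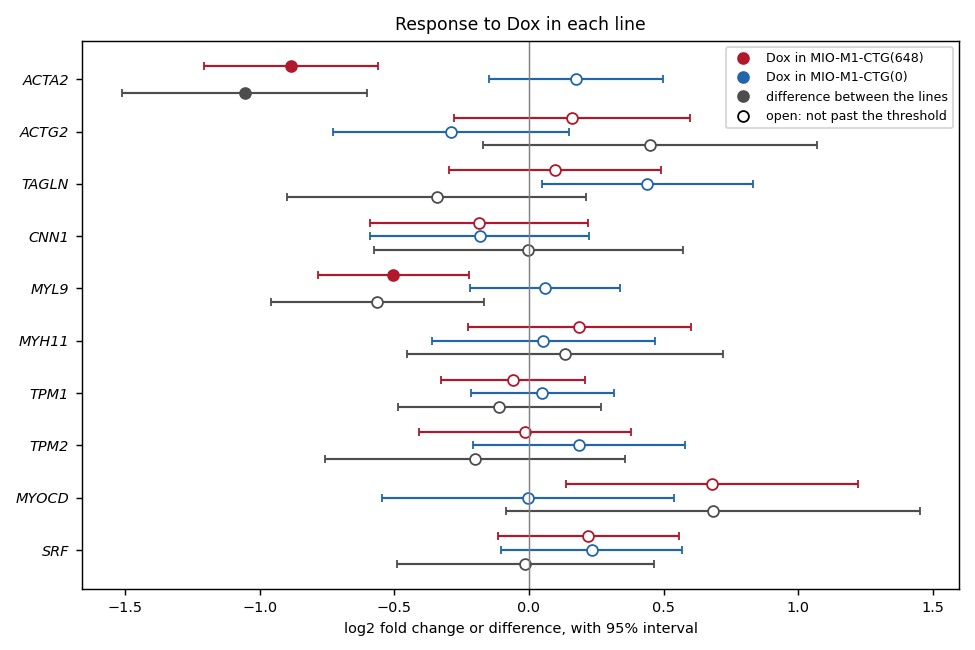
Log2 fold change with Dox, induced minus non-induced, of the 10 genes in MIO-M1-CTG(648) and MIO-M1-CTG(0) cells, and the difference between the lines in that response, with 95% intervals from limma (n = 3 cultures per group). Filled points passed the threshold: *ACTA2* (-0.88) and *MYL9* (-0.50) in MIO-M1-CTG(648) cells and *ACTA2* (-1.06) for the difference.

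Over the 10 members the median change with Dox was 0.04 in MIO-M1-CTG(648) cells, beside 0.01 over all probe sets, with 5 members above 0 and 5 below. In MIO-M1-CTG(0) cells the median was 0.06, beside -0.01 over all probe sets, with 7 above 0 and 3 below. Both comparisons of lines share samples with those of Dox. Between the lines the median was -0.52 with Dox and -0.42 without, beside 0.01 and 0.00 over all probe sets, with 9 and 10 members below 0. *MYOCD*, the exception with Dox, differed by 0.42 at signals under 5. Of the 5 members that passed between the induced lines, *ACTA2*, *TAGLN*, *CNN1* and *SRF* also passed between the non-induced lines, and *MYL9* did not. *ACTG2* passed between the non-induced lines alone. The calls of *CNN1* and *SRF* were lost when some single cultures were left out, with differences of -0.73 to -0.45 without them. The responses to Dox differed between the lines past the threshold in 1 of 10 members (*ACTA2*), where 2.32% of all probe sets passed in either direction.

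**Figure D4:**
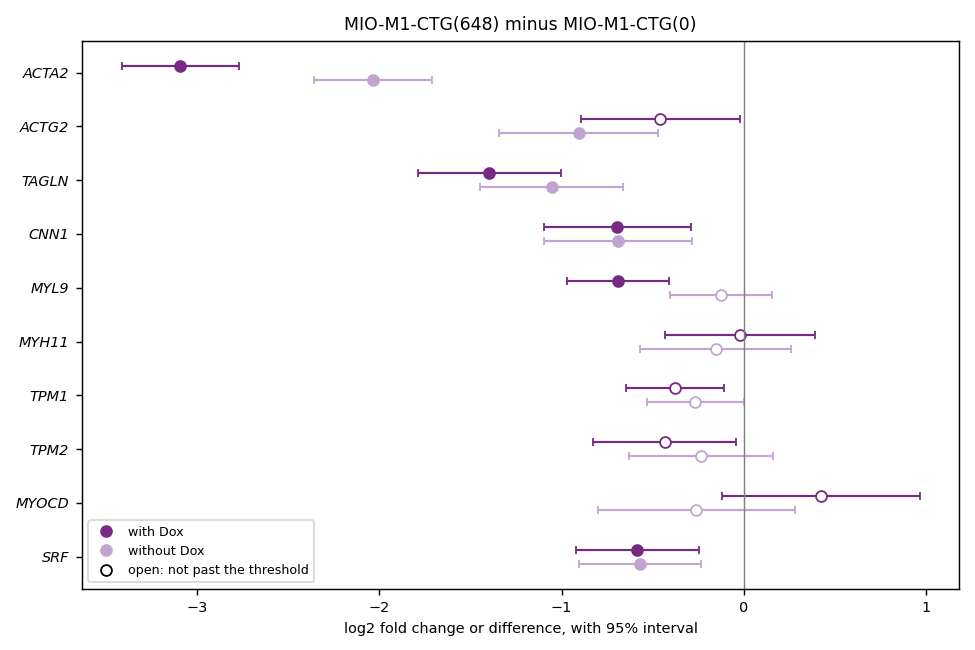
Log2 difference between MIO-M1-CTG(648) and MIO-M1-CTG(0) cells for the 10 genes with Dox and without Dox, with 95% intervals from limma (n = 3 cultures per group). Filled points passed the threshold. *ACTA2* stands at -3.09 with Dox and -2.04 without, and *MYL9* passed with Dox alone.

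Other genes of the contractile apparatus were also measured. Of the 31 further contractile and cytoskeletal genes of smooth muscle measured, 0 rose and 1 fell with Dox in MIO-M1-CTG(648) cells, where 2.42% of all probe sets passed in either direction. In MIO-M1-CTG(0) cells 0 passed, beside 1.18% of all probe sets, and the median change was 0.01 in the MIO-M1-CTG(648) line and -0.02 in the control line. MIO-M1-CTG(648) cells had 3 of these genes higher and 10 lower than MIO-M1-CTG(0) cells with Dox, and 3 higher and 6 lower without, with medians of -0.24 with Dox and -0.23 without. Of all probe sets, 11.7% passed in either direction with Dox and 11.8% without. *SMTN*, which encodes smoothelin and was picked after its values were seen, was lower in non-induced MIO-M1-CTG(648) cultures, at -1.32 (adjusted p = 0.00109). With Dox its difference between the lines was -0.47 and did not pass (adjusted p = 0.202). Its mean signal was 9.37 in Dox-induced and 8.64 in non-induced MIO-M1-CTG(648) cultures, a difference of 0.73 that fell just short of the threshold (unadjusted p = 0.00504, adjusted p = 0.198 by limma), although the groups did not overlap. *DES*, the muscle intermediate filament desmin, had group means under 5 in all groups. Of 22 measured striated muscle genes 0 passed with Dox in either line, and *ACTC1*, described above, was the 1 gene that differed between the lines.

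**Figure D5:**
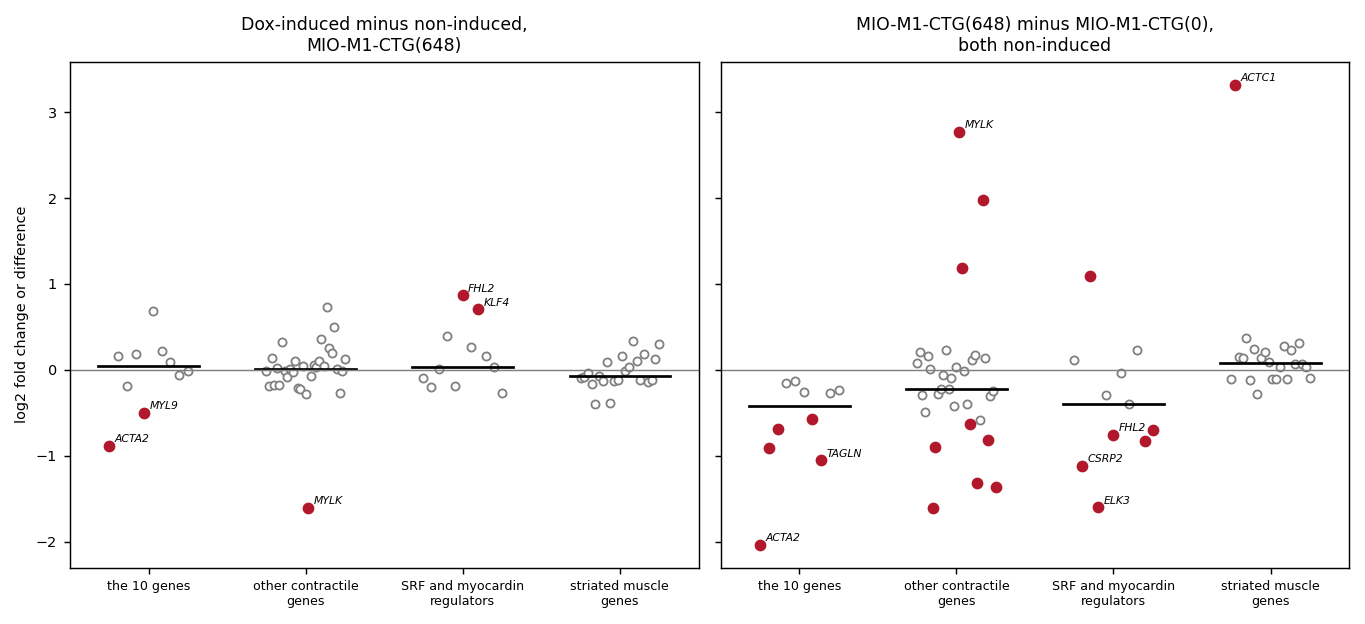
Log2 differences of single genes in 4 gene lists, for Dox-induced minus non-induced MIO-M1-CTG(648) cells (left) and for non-induced MIO-M1-CTG(648) minus non-induced MIO-M1-CTG(0) cells (right). Filled points passed the threshold, open points did not, and black bars are list medians. *MYLK* is at -1.61 on the left and 2.77 on the right, and *ACTA2* is negative on both sides.

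Marker genes of other cell types moved beside these genes. Of all probe sets, 2.42% passed in either direction with Dox in MIO-M1-CTG(648) cells. Between the lines, 11.7% passed with Dox and 11.8% without. Of 9 measured fibroblast markers 0 rose and 3 fell with Dox in MIO-M1-CTG(648) cells: *COL1A1*, the α1 chain of type I collagen (-0.997, adjusted p = 0.0577), *PDGFRA*, a receptor for platelet-derived growth factor (-1.05, adjusted p = 0.0103), and *FAP*, a fibroblast surface protease (-0.92, adjusted p = 0.0403). The mean signal of this list per array ranged from 11.01 to 11.20 in Dox-induced and 11.6 to 12.0 in non-induced MIO-M1-CTG(648) cultures, and from 12.2 to 12.6 in Dox-induced and 12.1 to 12.4 in non-induced MIO-M1-CTG(0) cultures. The largest difference between the lines in this list was that of *LUM*, which encodes the collagen-binding proteoglycan lumican and was lower in the MIO-M1-CTG(648) line, at -8.41 with Dox (adjusted p = 3.29e-08) and at -7.04 without (adjusted p = 1.43e-07). Without *LUM*, a choice made after seeing the data, the mean of the other 8 genes ranged from 11.6 to 11.8 in Dox-induced and 12.2 to 12.5 in non-induced MIO-M1-CTG(648) cultures, and from 11.9 to 12.1 in both Dox-induced and non-induced MIO-M1-CTG(0) cultures. The non-induced MIO-M1-CTG(648) cultures were then the highest, so the order of the groups in this mean depended on this 1 gene. Comparing the MIO-M1-CTG(648) line with the control line, 2 of the 9 markers were higher and 4 lower with Dox, and 3 were higher and 2 lower without. The part of these markers in the *ACTA2* result was not tested. Of 8 measured pericyte and mural cell markers 0 rose and 1 fell, the receptor *PDGFRB* (-0.90, adjusted p = 0.0163), whose response also differed between the lines (-1.40, adjusted p = 0.0135). The mural markers *CSPG4*, *ABCC9*, *NOTCH3* and *HIGD1B* were under 5 in all groups. Of 10 Müller glia markers 0 fell and 2 rose, the glutamate transporter *SLC1A3* (0.71, adjusted p = 0.0889) and the growth factor receptor *EGFR* (0.55, adjusted p = 0.193). The response of *EGFR* differed between the lines (0.97, adjusted p = 0.112). *SLC1A3* was also read higher with Dox in MIO-M1-CTG(0) cells, at a mean of 13.49 against 12.93 without, although 0 markers passed there. With Dox in MIO-M1-CTG(648) cells 3 of the 10 markers were above 0 and 7 below. The lowest was *SOX9* at -0.497, with means of 13.59 with Dox and 14.08 without. With Dox in the MIO-M1-CTG(648) line the median change was -0.92 over the fibroblast markers, 0.20 over the mural markers and -0.10 over the Müller glia markers, beside 0.01 over all probe sets. *RLBP1* and *AQP4*, markers of mature Müller glia, were under 5 in all groups.

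The genes whose signals ran closest to the 2 members with a range of group means over 1 were sought over the 12 arrays, by the root mean square difference after each gene was centred on its own mean, among 20193 probe sets with a group mean of at least 5. For *ACTA2*, with a range of 3.09, these were *SNAI2* (0.31), *FAR2* (0.31) and *OLFML2B* (0.33), with differences of -2.70, -2.51 and -1.94 between the lines without Dox. Their changes with Dox in MIO-M1-CTG(648) cultures were -0.20, -0.23 and -0.50, each smaller in size than that of *ACTA2*. For *TAGLN*, with a range of 1.49, they were *INTS9* (0.16), *HNF4G* (0.17) and *SDC2* (0.18), with differences of -1.19, -1.32 and -1.19 between the non-induced lines. The 12 arrays come from 2 lines, and each of these 6 genes was lower in non-induced MIO-M1-CTG(648) cultures, so the likeness includes that difference.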

How the data were processed

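RNA of 12 cultures was measured on Clariom D Human arrays (hg38 per the labels). The values deposited by the authors are log2 signals of 135750 probe sets. Per the methods, the authors applied RMA background correction and quantile normalization. The tool versions were not given in the sources used here. The 36176 probe sets with 1 gene symbol were fitted with limma 3.58.1 (R 4.3.3) over the 4 groups, with 8 residual degrees of freedom, and p-values were adjusted by Benjamini-Hochberg over all of them. The brightest probe set stood for a symbol. Every member was named, with up to 4 genes of each other list with the smallest p among those past the threshold. There were 3 biological replicates per group, which limits the precision. Other thresholds, normalizations, filters, variance models and fits without each culture were tried. Replicate numbers were not used to pair cultures in the fit reported. The 18 correlations of deviations between same-numbered cultures, over all probe sets with 1 symbol, lay between -0.08 and 0.07. Differently numbered cultures were not correlated, so pairing in some of the genes cannot be told from these values. Members and lists were chosen with earlier results of these data known. The fit was tested on simulated data. The result of 1 further gene list is not reported here.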

Additional observations from a re-analysis of the deposited data

Results flagged for a closer look

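The response of *ACTA2* to Dox differed between the lines: it was -0.88 in MIO-M1-CTG(648) cells and 0.17 in MIO-M1-CTG(0) cells, a difference of -1.06 (SE 0.21, unadjusted p = 0.000239, adjusted p = 0.0505 by limma). All 3 induced cultures were below all 3 non-induced cultures in the first line, and all 3 were above them in the second.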

How the results depend on the processing

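The decline of *ACTA2* with Dox in MIO-M1-CTG(648) cells passed under every alternative except a log2 limit of 1 and the methods' t-test. Members past the threshold there, 2 in the fit reported, numbered 1 under an adjusted p under 0.05, 1 with the 2 groups fitted alone, 1 with the methods' t-test, 1 with quantile normalization once more, 1 with all probe sets in the fit and 0 with a log2 limit of 1, and 1 to 2 when each culture was left out. *MYL9* was lost in all of these except the t-test, and *ACTA2* in the t-test and with the log2 limit of 1. *MYL9* was -0.47 without replicate 2 or 3 of MIO-M1-CTG(648) cultures without Dox, and -0.48 and -0.49 without replicates 2 and 3 of those with Dox. In the response of MIO-M1-CTG(0) cells all alternatives gave 0. Between the induced lines the 5 members became 1 (*MYL9*) once those differing between the non-induced lines were removed, as the study did. Without that step, these 5 became 2 (*ACTA2*, *TAGLN*) with a log2 limit of 1, and 3 to 5 with a culture left out. The methods' t-test left 4 there, without *CNN1*. In both comparisons of lines *SRF* was also lost with all probe sets in the fit and with its probe sets averaged. Between the non-induced lines the 5 became 2 with a log2 limit of 1, 2 with the methods' t-test, 3 with these groups alone and 3 to 5 with a culture left out. With a culture left out, *CNN1* and *SRF* were the members lost in both comparisons of lines. Without replicate 1 or 3 of MIO-M1-CTG(0) or replicate 1 or 2 of MIO-M1-CTG(648) cultures, *CNN1* with Dox was -0.66 to -0.60, and *CNN1* without Dox was -0.73 to -0.55 without any 1 of the cultures compared except replicate 3 of MIO-M1-CTG(648). *SRF* lost its call with Dox (-0.62 to -0.49) without any 1 except replicate 3 of MIO-M1-CTG(0), and without Dox (-0.61 to -0.45) without any 1 except replicate 2 of MIO-M1-CTG(0). For the difference in response, 1 member became 0 under an adjusted p under 0.05, and 2 (*ACTA2*, *MYL9*) with an intensity trend or with only probe sets of a group mean of at least 5. The cause was not tested. Signs turned only in values that never passed: *SRF* with Dox in MIO-M1-CTG(648) cells was -0.045 (0.22 reported) when its probe sets were averaged, *MYH11* with Dox in MIO-M1-CTG(0) cells was -0.012 and between the induced lines 0.016 with array weights, and *MYOCD* with Dox in MIO-M1-CTG(0) cells was 0.013 with arrays centred on their medians. With a culture left out, the change with Dox in MIO-M1-CTG(648) cells was -0.10 to 0.28 for *TAGLN*, -0.33 to 0.017 for *CNN1*, -0.0017 to 0.34 for *MYH11* and -0.20 to 0.13 for *TPM2*. The change in MIO-M1-CTG(0) cells was -0.05 to 0.17 for *MYH11* and -0.20 to 0.27 for *MYOCD*. *MYH11* was -0.21 to 0.13 between the induced lines and *MYOCD* from -0.45 to 0.0083 between the non-induced lines. The difference in response was -0.15 to 0.20 for *CNN1*, -0.055 to 0.29 for *MYH11* and -0.13 to 0.14 for *SRF*. Over all genes, an adjusted p under 0.05 gave 235 against 876 with Dox in MIO-M1-CTG(648) cells, 6 against 428 in MIO-M1-CTG(0) cells and 170 against 838 for the difference. A log2 limit of 1 gave 239, 57, 1556, 1603 and 512 in the order of Dox in MIO-M1-CTG(648), Dox in MIO-M1-CTG(0), induced lines, non-induced lines and difference in response, where the fit reported gave 876, 428, 4229, 4252 and 838. The methods' t-test gave 409, 127, 2454 and 2105 in the first 4 of these. A fit on all 135750 probe sets called 271 of the same probe sets with Dox in MIO-M1-CTG(0) cells. The replicate number as a block changed no call of a member, with 2, 0, 5, 5 and 1 members in that order, and 834 calls over all probe sets with Dox in MIO-M1-CTG(648) cells. With 3 cultures per group and no measure of background, signals near 5 and below, as for *MYH11* and *MYOCD*, limit what can be read.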

Other observations

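The lines differed by chromosome in the share of genes called, and these values stand beside the line differences of the 10 genes without a test. Between the non-induced lines, over probe sets with 1 symbol and a group mean of at least 5, 26.9% of 702 on chromosome 8 were lower in MIO-M1-CTG(648) cells and 3.85% higher, with a median log2 difference of -0.26. On chromosome 11, where *TAGLN* lies, 3.01% of 1064 were lower and 21.8% higher, with a median of 0.23, while *TAGLN* itself stood at -1.05. On chromosome 10, with *ACTA2*, 13.1% of 785 were lower and the median was -0.15, and on chromosome 6, with *SRF* (-0.57), 16.04% of 1066 were lower and the median was -0.16. Chromosomes 2 and 19 hold *ACTG2* (-0.91) and *CNN1* (-0.69). The medians there were 0.10 and 0.07, with 7.87% of 1372 and 6.85% of 1183 lower. *INTS9*, *HNF4G* and *SDC2*, the genes closest to *TAGLN*, all lie on chromosome 8. Of the genes closest to *ACTA2*, *SNAI2* lies on chromosome 8, *FAR2* on chromosome 12 and *OLFML2B* on chromosome 1.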
